A study of Mus musculus with 14 samples.

Results

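Bulk RNA-seq of dorsal lumbar spinal cord microglia holds 8 libraries from mice given K/BxN serum, and these fall into 2 classes by their content of Ly6c2, the gene of the Ly6C antigen of blood monocytes. The classes were chosen by the measured normalized count of Ly6c2 alone: the 4 libraries above 1000 are called Ly6c2-high and the 4 libraries below 100 Ly6c2-low. Each class holds 2 TASTPM and 2 wild-type (WT) libraries, and together they are 8 of the 14 libraries of the series. Because the classes were chosen by a readout of the same libraries, every difference between them is given as a description and without a test. Of the 14329 genes measured, 13199 had 10 or more reads in at least 4 of the 8 libraries and were compared.

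All mice were C57BL/6 and 6 months old and tissue was taken at day 5 after serum transfer (ST). K/BxN serum carries arthritogenic autoantibodies, and K/BxN ST gives a passive inflammatory arthritis. TASTPM mice are heterozygous transgenics whose transgenes, human APP with the Swedish mutation among them, are driven by the neuronal murine Thy-1 promoter, and the WT mice carry no transgene. The 6 remaining libraries, 3 TASTPM and 3 WT, came from mice given control serum (Control ST) and serve as background. Each library was made from 2000 cells sorted as CD45low CD11b+ CX3CR1+ after perfusion and removal of the meninges, and the gating of the study also names Ly6C and CCR2 as negative. Libraries are called here by the column headings of the deposited values. The Ly6c2-high libraries are R1 and R2 (TASTPM) and R9 and R10 (WT), and the Ly6c2-low libraries are R3 and R4 (TASTPM) and R11 and R12 (WT). The numbers of the WT and Control ST columns do not follow the replicate numbers of the sample labels, so these columns are tied to their group only.

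Microglia are the resident macrophages of the spinal cord, maintained by CSF1R signalling and marked by Tmem119, P2ry12 and Sall1. Classical monocytes are made in the bone marrow, carry Ly6C and CCR2 and leave the blood along CCL2 gradients, and neutrophils share the myeloid lineage but store distinct granule proteins. Both blood cell types and microglia depend on the transcription factor PU.1, encoded by Spi1. In bulk RNA values are relative, so a lower value of a cell type's genes can come from fewer of its cells or less of their RNA per cell. It can also come from more RNA of other cells, and these cannot be told apart here.

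On GRCm39, Ly6c2 lies on chromosome 15 from 74980003 to 74988467 on the minus strand, Ccr2 on chromosome 9 from 123901982 to 123913594 on the plus strand, and Chil3 on chromosome 3 from 106054870 to 106074880 on the minus strand. The bases before the start sites of these 3 markers of the Ly6c2-high libraries, and of the microglia gene P2ry12 for contrast, are shown because the 3 markers move together and P2ry12 moves the other way. Each run is the 250 bases upstream of the RefSeq start site in GRCm38.p6, written 5′ to 3′ on the strand of the gene. Capitals mark the 7 letters AGGAAGT, the core that PU.1 binds, on either strand. The windows are chr15:75111972-75112221, chr9:124101933-124102182, chr3:106167565-106167814 and chr3:59262986-59263235.
Ly6c2: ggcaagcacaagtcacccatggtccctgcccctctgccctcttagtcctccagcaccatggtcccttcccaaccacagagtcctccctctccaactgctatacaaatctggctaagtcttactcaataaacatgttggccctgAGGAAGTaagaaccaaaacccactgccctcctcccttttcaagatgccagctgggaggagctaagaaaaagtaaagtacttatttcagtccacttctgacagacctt
Ccr2: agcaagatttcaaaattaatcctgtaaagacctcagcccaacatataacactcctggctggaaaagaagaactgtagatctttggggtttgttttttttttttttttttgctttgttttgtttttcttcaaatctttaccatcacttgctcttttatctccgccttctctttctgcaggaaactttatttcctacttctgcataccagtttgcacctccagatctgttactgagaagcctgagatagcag
Chil3: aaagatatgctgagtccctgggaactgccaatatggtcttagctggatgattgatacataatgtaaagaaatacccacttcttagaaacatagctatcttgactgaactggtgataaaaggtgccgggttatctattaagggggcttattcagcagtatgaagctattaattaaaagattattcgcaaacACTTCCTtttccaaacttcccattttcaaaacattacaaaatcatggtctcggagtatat
P2ry12: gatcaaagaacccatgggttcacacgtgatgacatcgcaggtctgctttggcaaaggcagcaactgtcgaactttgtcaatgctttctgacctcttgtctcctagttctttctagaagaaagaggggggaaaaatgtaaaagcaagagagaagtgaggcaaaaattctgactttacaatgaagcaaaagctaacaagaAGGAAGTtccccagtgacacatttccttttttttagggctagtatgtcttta

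AGGAAGT was present once in the windows of Ly6c2, Chil3 and P2ry12, with its first base 107, 60 and 52 bases before the start site, and not in that of Ccr2. Of 27025 genes with a promoter entry, 7.80% held it on either strand, and 8.02% of the 9434 entries of genes compared, against 10.9% of the 1017 entries of genes called higher in the Ly6c2-high libraries and 7.72% of the 311 entries of genes called lower. It was found in 6 of 20 classical monocyte genes and in 5 of 23 microglia core genes with an entry, so genes on both sides of the contrast hold it. The C/EBP letters TTGCNNAA were in 9.55% of all entries, 7.44% of those of the genes compared, 9.34% of those of the higher genes and 8.04% of those of the lower genes. A second C/EBP form, TTNCGNAA, was in 2.02, 3.33, 2.36 and 2.89% of the same sets. These are among 12 short motifs searched on both strands, some of which overlap, and a match of letters is a description and not a binding site.

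The libraries held 15817451 to 18738784 reads on genes in the Ly6c2-high class, 14223015 to 15248090 in the Ly6c2-low class and 15065008 to 20239175 under Control ST, so the high libraries were all deeper than the low ones. Sex-linked RNA moved with the classes. All 4 Ly6c2-high libraries had 1872 to 2272 normalized counts of 4 Y-linked genes and at most 12.5 of Xist, as had R3 among the low libraries, whereas R4, R11 and R12 had 3247 to 5816 of Xist and at most 46 of the Y-linked genes. The part of sex in the differences was not tested. The Y-linked genes were also above 500 in 4 of the 6 Control ST libraries, and Ly6c2 there was at most 7.27. Control ST library R16 held both, with 1706 of Xist and 852 of the Y-linked genes.

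Ly6c2 was at 29133, 15646, 23510 and 12898 normalized counts in R1, R2, R9 and R10. It was at 12.9, 10.2, 3.58 and 13.1 in R3, R4, R11 and R12, and between 1.87 and 17.8 under Control ST. No library lay near the limits of the rule, since the lowest high library stood at 12898 and the highest low library at 13.1. The difference of the mean log2(normalized count + 1), the scale of all differences below, was 10.91 ± 0.47 (SE, 4 against 4 libraries). It was 11.08 within WT and 10.74 within TASTPM.

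Ccr2, the chemokine receptor that brings classical monocytes out of bone marrow, was at 27035, 8537, 22987 and 19661 in R1, R2, R9 and R10, against 16.4, 14.7, 5.97 and 9.81 in R3, R4, R11 and R12, a difference of 10.55 ± 0.48. Chil3, a chitinase-like secreted protein of monocytes, was at 53696, 69026, 48346 and 25628 against 35.2, 30.5, 14.3 and 31.6, a difference of 10.72 ± 0.42. The 3 markers separated the same 4 libraries, with no overlap. They did not rank those libraries alike: R1 was highest for Ly6c2 and Ccr2, whereas R2 was highest for Chil3 and lowest for Ccr2. Among genes with a mean of at least 100, the 4 whose log2 values over the 8 libraries followed Ly6c2 most closely were Mgst1, Ltb4r1, Plbd1 and Nfe2. No coefficient is given, because the libraries form 2 separate clusters.

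**Figure D1:**
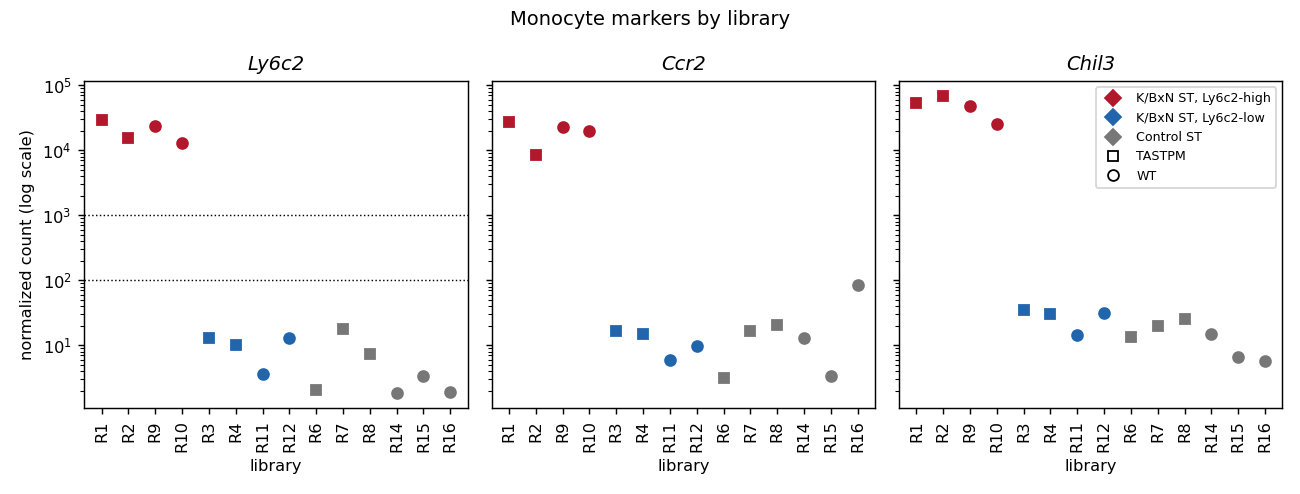
Normalized counts (log axis) of Ly6c2, Ccr2 and Chil3 in each of the 14 libraries, 1 point a library, coloured by class, with squares for TASTPM and circles for WT and dotted lines at the 1000 and 100 of the rule for Ly6c2. The 4 Ly6c2-high libraries lie at 8537 or above for all 3 genes, and the Ly6c2-low and Control ST libraries at 86.0 or below.

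Ly6c1, the close paralog of Ly6c2 at chromosome 15 from 74915847 to 74920686, had 31.2, 9.51, 29.8 and 12.4 normalized counts in R1, R2, R9 and R10 and was listed at 0 in the 4 low libraries. Under Control ST it was at 81.8 in R8, where Ly6c2 was at 7.27, and listed at 0 in the other libraries. The coding sequences of the 2 genes are identical at 387 of 396 bases (97.7%), with a longest shared run of 188 bases. The value of Ly6c1 is therefore uncertain, since reads from shared stretches can belong to either gene. Ly6a2, annotated as a transcribed pseudogene from 75003524 to 75006673 beside Ly6c2, had 2766 to 5992 in the high libraries and at most 2.26 in the low ones. Its reads were not compared with those of Ly6c2 by sequence.

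A gene was called where the 4 high and the 4 low libraries did not overlap and the difference was above 1 on the log2 scale. By this rule 1421 genes were higher in the Ly6c2-high libraries, 10.8% of those compared, and 486 were lower, 3.68%. The filter was passed through the high libraries alone by 280 genes and through the low libraries alone by 8, and such genes had to differ, so the filter bears on the numbers of both sides. With 10 reads required in all 8 libraries 788 genes were higher and 414 lower. The median difference was 2.16 among the higher genes, of which 398 exceeded 5, and −1.27 among the lower genes, of which 21 fell below −3. The median over all 13199 genes was 0.04. Non-overlap alone gave 2130 higher (16.1%) and 1284 lower genes (9.73%).

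Of the 1421 higher genes, 979 (68.9%) were also above all 6 Control ST libraries in each high library. In the low libraries 102 of them had no read and 274 had fewer than 10 reads in each, while 788 had 10 or more in every low library. Of the 486 lower genes, 114 (23.5%) were below all Control ST libraries in each high library. The same shares were not counted over all genes compared, so 68.9% and 23.5% have no base beside them. Against the 6 Control ST libraries in place of the low K/BxN libraries, 1061 of 13199 genes were higher and 168 lower, with 891 and 68 genes shared with the calls above. This alternative was chosen after the data were seen.

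The higher genes took 23.2, 13.2, 20.8 and 14.8% of the reads of R1, R2, R9 and R10, 3.77 to 3.95% of the reads of the low libraries and 3.84 to 4.32% under Control ST apart from R7, which was higher than these and below the high libraries. The lower genes took 2.92, 5.40, 4.06 and 5.98% in the high libraries against 9.32 to 9.75% in the low ones. R1 stood furthest from the low class on both measures. A single gene, Lyz2, which encodes the lysozyme of macrophages and monocytes, held 3.26, 1.55, 3.06 and 2.60% of the reads in the high libraries and 0.0543 to 0.0703% in the low ones.

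The gene lists were written with earlier results of these data known, so their counts are descriptions and not independent evidence. All 27 classical monocyte genes were measured and called higher, against 10.8% over all genes, with differences from 2.62 to 11.23 and a median of 9.94. Ly6c2, which set the classes, is 1 of them, and the other 26 had a median of 9.78. With 10 reads required in all 8 libraries, which leaves 10 of the 27, the median was 4.13. In 10 of the 27 the filter was passed through the 4 high libraries alone, so that those members had to differ. The same held for 2 members each of the homing, antimicrobial and S100 lists described below, for 1 each of the MHC class II and blood transcription factor lists and for 5 of the genes named by the study. The list held 5.05, 2.57, 4.52 and 3.49% of the reads of R1, R2, R9 and R10, against 0.0690 to 0.0833% in the low libraries and 0.0647 to 0.161% under Control ST. Without Ly6c2 the shares were 4.87, 2.48, 4.38 and 3.41%, against 0.0689 to 0.0832% in the low libraries. A share of this size has a 95% Wilson interval of at most 0.0400 percentage points, for counting error only.

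Gda, guanine deaminase, had the largest difference of the genes with a mean of at least 100, at 11.23 ± 0.41, with 4627, 2148, 3668 and 1908 normalized counts in R1, R2, R9 and R10 and at most 1.09 in the low libraries. Clec4e, the Mincle receptor for glycolipids, was at 5677, 1664, 2432 and 669 and had no read in any low library. Against a floor of 3 reads per low library its mean was at least 759-fold higher. Hp, encoding haptoglobin, was at 25011, 12649, 17950 and 9395 against 5.87, 5.64, 2.39 and 48.0. The 10 largest differences, from 10.67 for Hp to 11.23 for Gda, also held Ly6a2, Gm9733, Mgst1, a microsomal glutathione transferase, Prtn3, a granule protease, and Plbd1, beside Ly6c2 and Chil3.

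Genes of adhesion and homing did not move as 1 block. Of 22, 9 were called higher, against 10.8% over all genes, and 1 lower, near the 3.68% over all genes. Their median of 1.00 turned to −0.18 with 10 reads required in all 8 libraries. Itgal, the alpha chain of LFA-1, was at 2562, 958, 2093 and 2150 against 0, 0, 2.39 and 3.27, whereas its partner Itgb2 overlapped between the classes, at 19127 to 21661 and 18088 to 21592. Itga4, Itgb7, Cd44, Cd52, Alcam and Cxcr4 were also called higher, as was Ccr2. Of the genes behind the sort, Ptprc (CD45) was at 11124 to 14424 in the high and 7769 to 10392 in the low libraries, Itgam (CD11b) at 3246 to 4981 and 5546 to 6919, and Cx3cr1 at 35235, 79648, 72232 and 107725 against 124124 to 155865. Cx3cr1 was the member called lower, and Ptprc and Itgam did not overlap either but differed by 0.54 and −0.54.

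Neutrophil granule genes divided the Ly6c2-high libraries. Ngp, an abundant granule protein, was at 63729, 50469 and 55008 in R1, R2 and R9 and at 32.8 in R10, within the 8.36 to 51.2 of the low libraries. S100a8 and S100a9, the subunits of calprotectin, were at 38454 to 53594 in R1, R2 and R9 and at 143 and 51.4 in R10, with up to 378 and 528 in R12 of the low class. Ltf, lactoferrin, was at 25011, 18114, 24348 and 0.886. Under Control ST S100a8 and S100a9 reached 969 and 1525, above R10 and every low library, whereas Ngp and Ltf reached 32.2 and 9.99. The values of R10 for these 4 granule genes lay within or below the range of the low class. R10 was also the lowest high library for Ly6c2 and Chil3, at 12898 and 25628, and R2 was lowest for Ccr2.

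Ly6g, the antigen that marks mouse neutrophils, had 440, 567 and 868 normalized counts in R1, R2 and R9, was listed at 0 in R10 and reached 2.18 in R12 of the low class. Cxcr2, the receptor that calls neutrophils to chemokines, was at 533, 839, 1198 and 0.886, and Mmp9, a granule gelatinase, at 2353, 2997, 4636 and 0. All 3 failed the filter, having 10 or more reads in fewer than 4 libraries. Not all of the list was missing from R10. Mmp8 was at 3245, Cd177 at 3892, Prtn3 at 562, Padi4 at 259 and Trem1 at 151 in R10, each above all 4 low libraries.

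Of the 19 neutrophil genes 17 were measured and 14 passed the filter, 4 of them through the high libraries alone. Of the 14, 8 were called higher, against 10.8% over all genes. Their median difference was 8.32, and 10.13 without R10. With 10 reads required in all 8 libraries it turned to −0.69, since Csf3r was then the 1 member left. The list held 1.36, 1.33, 1.48 and 0.0925% of the reads of R1, R2, R9 and R10 and 0.0422 to 0.0711% of those of the low libraries. Csf3r, the receptor for G-CSF, was the member with a negative difference, at 3684 to 6811 against 6956 to 10517 (−0.69, and 0.18 when scaled to microglia core reads as described below). Over all measured genes, 23 were more than 10-fold above R10 and every low library in each of R1, R2 and R9 with a mean of at least 100 in those 3. The same search found 2 genes missing from R2, Ddr1 and Traf1, and 0 missing from R1 or from R9. Cebpe, the transcription factor of granule formation, was at 156, 358 and 249 in R1, R2 and R9 and listed at 0 in R10, in the low libraries and under Control ST. It and the search for genes missing from 1 library were chosen after the values were seen.

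**Figure D2:**
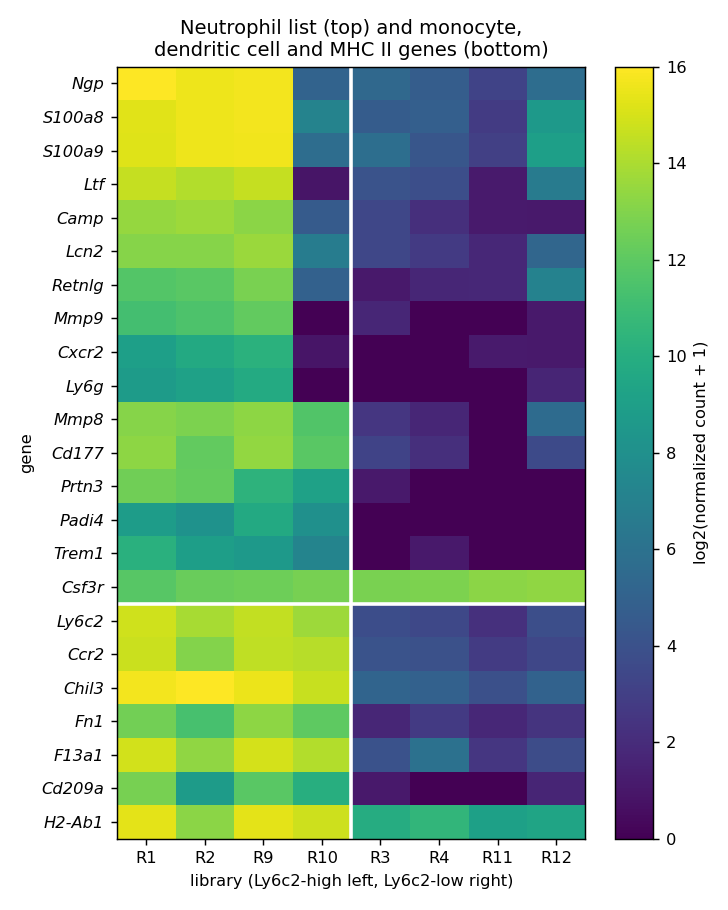
log2(normalized count + 1) of 16 genes of the neutrophil list and 7 genes of the monocyte, dendritic cell and MHC class II lists in the 8 K/BxN ST libraries, 1 column a library and 1 row a gene. The genes from Ngp to Ly6g are bright in R1, R2 and R9 and dark in R10, whereas Mmp8, Cd177 and the monocyte genes are bright in all 4 Ly6c2-high libraries.

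Antimicrobial and NADPH oxidase genes were higher in 10 of the 16 members that passed, against 10.8% over all genes. Cybb, the catalytic subunit of the phagocyte oxidase, was at 25877, 12634, 28501 and 21434 in R1, R2, R9 and R10 against 715, 582, 588 and 1158, a difference of 4.85 ± 0.35. The other subunits differed less. Rac2 differed by 1.54 and Ncf4 was at 2373 to 3635 against 932 to 1339, Cyba was higher without overlap by 0.59, and Ncf1 overlapped at −0.45 (0.43 when scaled to microglia core reads). Chil3, Hp, Lyz2, Lyz1, Slpi, Lcn2 and Camp were the other members called. Lcn2 and Camp were at 103 and 23.0 in R10, against 8568 to 12732 in R1, R2 and R9. Lyz1 and Lyz2 are close paralogs, so the value of Lyz1 is uncertain.

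Among S100 and annexin genes 10 of 14 were called higher, against 10.8% over all genes. Anxa2, a membrane-binding annexin, was at 20287, 7713, 22561 and 9379 in R1, R2, R9 and R10 against 141 or less, and S100a6 was at 6615, 2729, 7637 and 4348 against 4.70 to 28.3. Anxa1, whose product limits leukocyte entry, was at 10152, 6563, 11653 and 3184 against 3.52 to 7.63. Anxa3 was lower without overlap, at 5112 to 7636 against 7805 to 9411 (−0.51, and 0.36 when scaled to microglia core reads). Anxa1 is also in a list of 20 genes that the study named, of which 17 were called higher, against 10.8% over all genes. Their median was 5.90 (2.84 with 10 reads in all 8 libraries), but the study chose those genes on these samples and their direction is not independent evidence.

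Of 10 MHC class II genes 5 were called higher and 1 lower, against 10.8% and 3.68% over all genes. H2-Ab1, a chain that presents antigen, was at 41826, 9696, 42071 and 27998 in R1, R2, R9 and R10 against 538 to 1453. H2-Aa was at 28159, 6568, 30560 and 19271 against 10.9 to 1143, and the invariant chain Cd74 at 99617, 26822, 105860 and 76375 against 1407 to 4515. R2 was the lowest of the 4 for each of these, as it was for the share of the list, at 0.385% of reads against 0.929 to 1.27% in the other 3. The chaperone gene H2-DMa overlapped between the classes, at 8695 to 11020 and 9120 to 9958, with a difference of 0.02. H2-Oa, part of the H2-O complex that restrains H2-DM, was called lower, with 248 to 586 against 700 to 882.

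Of 12 measured dendritic cell genes 8 were called higher, against 10.8% over all genes, 7 of the 12 having passed through the high libraries alone. With 10 reads required in all 8 libraries Itgae and Batf3 were left, with a median of −0.10. Cd209a, a lectin of monocyte-derived dendritic cells, was at 6678, 440, 3844 and 1031 in R1, R2, R9 and R10 and at most 2.18 in the low libraries. Clec10a was at 1300, 271, 964 and 568, and Flt3, the receptor for the dendritic cell growth factor, at 923, 243, 556 and 507 against at most 127. Zbtb46, a transcription factor that marks conventional dendritic cells, was at 4.43 to 132 in the high and 68.8 to 223 in the low libraries and was not called, and neither were Irf4, Batf3 and Itgae.

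Nonclassical monocyte genes were called higher in 11 of 14, against 10.8% over all genes, and 6 of the 14 had passed through the high libraries alone. The median was 6.08, and 0.04 with 10 reads required in all 8 libraries, which left Dusp16, Eno3, Pou2f2 and Stk10. Ear2, an eosinophil-type ribonuclease, was at 1590, 538, 1728 and 1465 against at most 2.26, and Nr4a1, the nuclear receptor on which nonclassical monocytes depend, at 782, 224, 637 and 1061 against 1.17, 39.5, 49.0 and 1.09. Pou2f2 had 309 to 416 in the high and 481 to 780 in the low libraries, a difference of −0.85 that was 0.02 when scaled to microglia core reads.

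The proliferation genes were called higher in 17 of 21, against 10.8% over all genes, with a median difference of 5.30. In 4 of the 21, Mki67 among them, the filter was passed through the high libraries alone. With 10 reads required in all 8 libraries the median was 1.05. Top2a, the topoisomerase of dividing cells, was at 2679, 1296, 1706 and 548 in R1, R2, R9 and R10 against 0, 5.64, 47.8 and 51.2. Mki67, the proliferation antigen, was at 428, 224, 444 and 184 with no read in any low library. R10 was the lowest high library for both, and R1 held the largest share of reads for the list, 0.306% against 0.177, 0.214 and 0.107% in R2, R9 and R10 and 0.0348 to 0.0405% in the low libraries. The 4 members that were not called, Mcm3, Mcm6, Tubb5 and Tyms, differed by 0.73 to 0.94. The median was 2.90 within WT and 7.29 within TASTPM, where R3 and R4 had at most 2.35 normalized counts of Rrm2, Cenpa and Birc5.

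Of 16 blood myeloid transcription factors that passed, 8 were called higher, against 10.8% over all genes. Nfe2, which serves megakaryocytes and myeloid cells, was at 2232, 1151, 2246 and 1604 against at most 3.27. Irf7 was at 1268 to 1752 against 169 to 363, and Runx3 at 138 to 429 against 0 to 105. Cebpa, Cebpb, Cebpd, Klf2, Klf4 and Klf13 overlapped between the classes.

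Interferon-stimulated genes were called higher in 16 of 32, against 10.8% over all genes, with a median of 1.68. Ifitm2 and Ifitm3, antiviral membrane proteins, were at 3104 to 10200 and 12281 to 32670 in the high libraries against 11.9 to 79.6 and 289 to 957 in the low ones. Ifi27l2a was at 1765 to 2899 against 255 to 451 and Ifi209 at 1919 to 4495 against 437 to 834. The classical induced genes Ifit1, Ifit2, Ifit3, Rsad2, Cxcl10, Usp18 and Stat2 overlapped between the classes, with differences from −0.76 for Ifit3 to 3.63 for Cxcl10.

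Of 20 genes of disease-associated microglia 5 were called higher, against 10.8% over all genes, and the median was 0.31 (0.07 with 10 reads in all 8 libraries). These were Apoe, a lipid carrier, at 33549 to 54391 against 5833 to 15141, Lgals3, galectin-3, at 9134 to 22744 against 2.39 to 285, Ccl6, Clec7a and Spp1. Trem2, Ctsd, Ctsl, Cd9 and Timp2 had differences from −0.95 to −0.71 and were not called, and Ctsl and Cd9 turned to 0.15 and 0.17 when scaled to microglia core reads. Among cytokines and chemokines the calls, 3 higher and 1 lower of 17, were near the 10.8% and 3.68% over all genes. Those called higher were Il1b (3122, 952, 1529 and 510 in R1, R2, R9 and R10 against 1.09 to 182), Il1rn and Ccl9, and the gene called lower was the inflammasome sensor Nlrp3 (150 to 230 against 292 to 600). Tnf, Ccl3, Ccl4 and Osm overlapped.

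Glycolysis genes were called higher in 8 of 20, against 10.8% over all genes. Their median was 0.89, below the 9.94 of the classical monocyte genes. Their largest difference, 4.01, was above the smallest of the classical monocyte genes, 2.62. Pkm, pyruvate kinase, was at 23012, 15549, 23433 and 12571 in R1, R2, R9 and R10 against 4441 to 6507, a difference of 1.70 ± 0.25. Ldha was at 6944 to 16859 against 4780 to 5441, whereas Ldhb was lower without overlap at 3441 to 6163 against 7702 to 8208. Aldoc was the 1 of 20 called lower, near the 3.68% over all genes, at 146 to 518 against 773 to 1046. Immediate early genes were called higher in 3 of 14, against 10.8% over all genes, with a median of 0.66 (0.20 with 10 reads in all 8 libraries), namely Fos, Ier2 and Nr4a1, and Jun, Junb, Klf6 and Zfp36 overlapped.

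**Figure D3:**
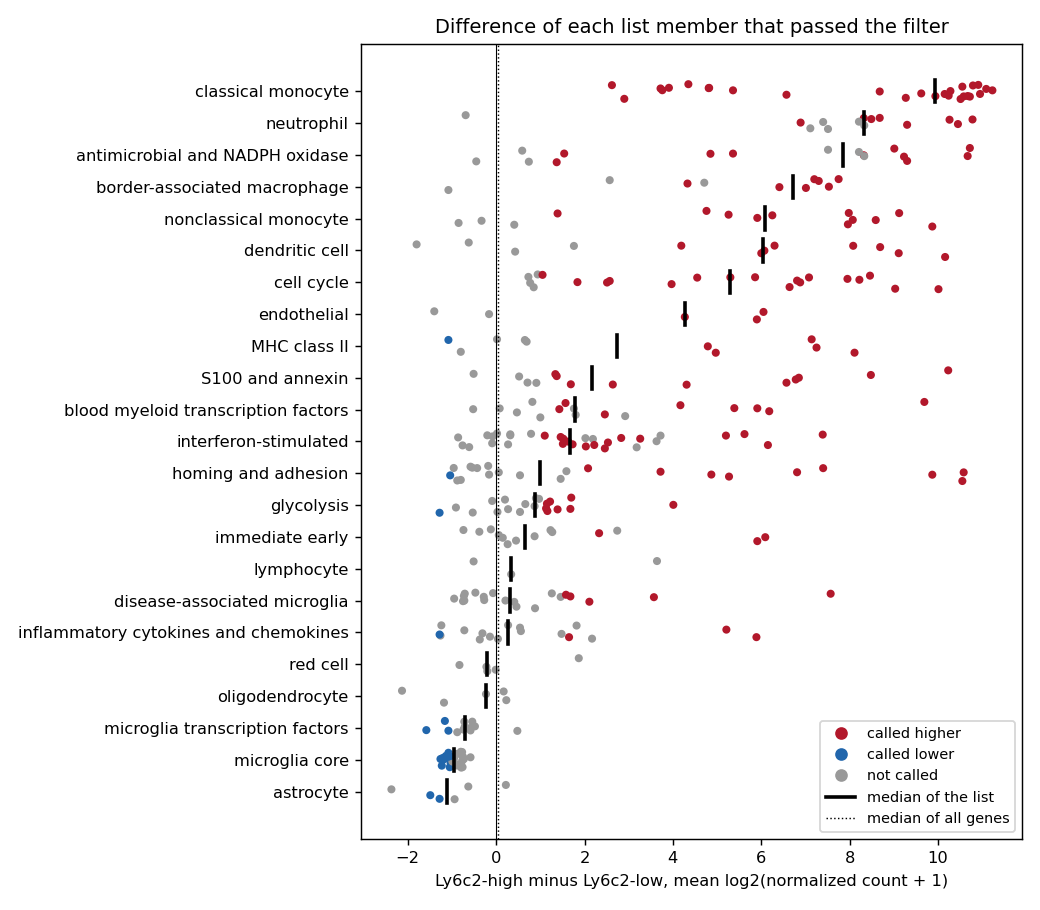
Difference between Ly6c2-high and Ly6c2-low libraries, on the log2(normalized count + 1) scale, of each member of 23 gene lists that passed the filter, 1 point a gene, with bars at the median of the list and a dotted line at the median of all genes. Classical monocyte genes lie from 2.62 to 11.23, and microglia core genes from −1.26 to −0.58.

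All 29 microglia core genes were on the lower side, from −1.26 to −0.58 with a median of −0.95, within WT by −0.78 and within TASTPM by −1.09. Of these 25 did not overlap between the classes, against 9.73% lower without overlap over all genes. The log2 limit was passed by 12, which were called lower, against 3.68% over all genes. The list held 6.61, 13.8, 8.96 and 12.7% of the reads of R1, R2, R9 and R10, 17.6 to 19.0% in the low libraries and 17.2 to 20.2% under Control ST. R1, R9, R10 and R2 stood in this order from the lowest to the highest share of microglia reads and from the highest to the lowest share of classical monocyte reads.

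**Figure D4:**
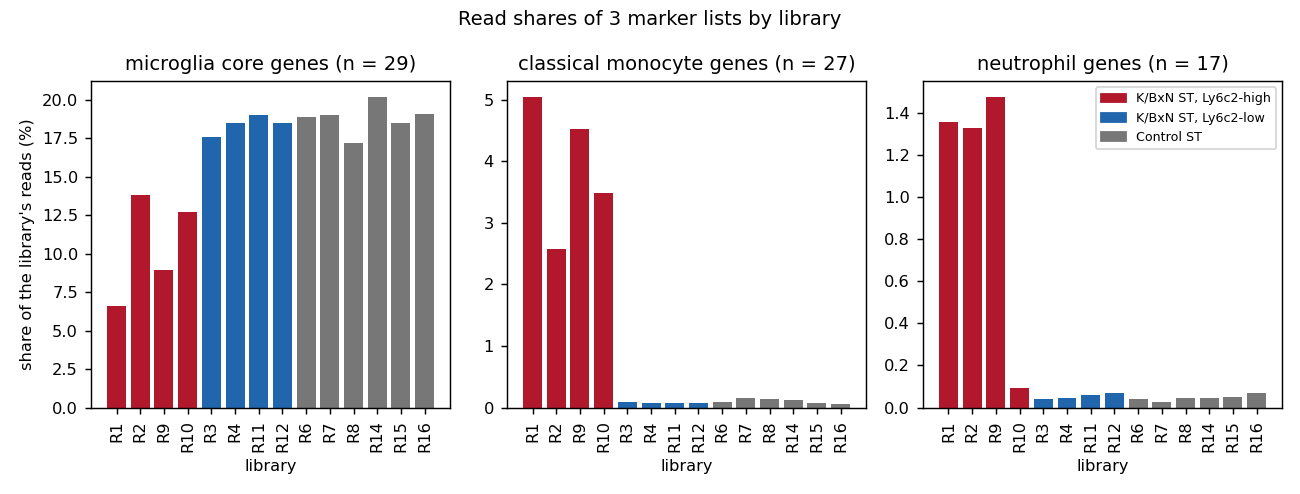
Share of each library's reads, in percent, that fell on 29 microglia core genes, 27 classical monocyte genes and 17 neutrophil genes, with 1 bar a library from 0. The microglia share is 6.61 to 13.8% in the 4 Ly6c2-high libraries and 17.2% or more in the 10 others, and the neutrophil share of R10 is 0.0925% against 1.33% or more in R1, R2 and R9.

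Tmem119, a microglial surface protein, was at 42292, 84054, 58489 and 84020 in R1, R2, R9 and R10 against 146688, 162963, 144647 and 133298 in R3, R4, R11 and R12, a difference of −1.18 ± 0.25. P2ry12, the ADP receptor of microglial processes, was at 34656, 79940, 63550 and 94752 against 107606, 110310, 140287 and 139465, and did not overlap but differed by −0.95. Csf1r was at 82440 to 192003 against 257924 to 289900. Sall1, the transcription factor that sets microglial identity, was at 937, 1615, 2002 and 2713 against 3062 to 4215. R1 was the lowest library for every one of these 4 genes.

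Relative to the mean of the 4 low libraries, the median core gene stood at 31.5% in R1, 68.3% in R2, 49.1% in R9 and 67.9% in R10. The genes of the list were not equally lower. In R1 they ran from 24.3% for Gpr34 to 52.8% for Ctss. In R2 the lowest was Sall1 at 44.7%, and Ctss, at 251495 normalized counts against 239584 to 263208, was the 1 gene not below its low mean. Cathepsin S, encoded by Ctss, had the smallest difference of the list at −0.58 and overlapped between the classes. Mertk, the receptor that takes up apoptotic cells, had the largest at −1.26, with 3540, 6667, 3953 and 6880 against 10191 to 13267.

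**Figure D5:**
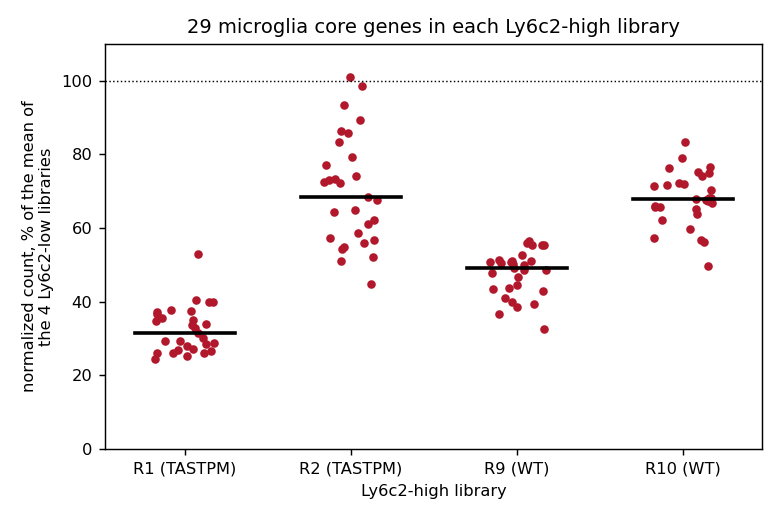
Normalized count of each of the 29 microglia core genes in the 4 Ly6c2-high libraries as a percent of its mean in the 4 Ly6c2-low libraries, 1 point a gene, with bars at the median. The medians are 31.5% in R1, 68.3% in R2, 49.1% in R9 and 67.9% in R10, and a single point, Ctss in R2, lies above 100%.

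Microglia transcription factors had a negative difference in 11 of 12, with a median of −0.72 that turned to 0.16 when scaled to microglia core reads. Bhlhe41, Sall3 and Sall1 were called lower, against 3.68% over all genes. Spi1, which monocytes express too, was higher without overlap at 8277 to 10673 against 6411 to 7233, a difference of 0.48.

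When each library was instead scaled to the same summed reads of the 29 core genes, an alternative chosen after the data were seen, 25 genes in place of 486 were called lower, all among the 486, and 3830 were called higher. Under this scaling the median of all genes moved to 0.90, and the core list, which sets the scale, to −0.08, with 9 genes above 0 and 20 below. Tmem119 moved to −0.31, Csf1r to −0.16 and Sall1 to −0.21. Ddit4, a stress-induced inhibitor of mTORC1 signalling, moved from −2.40 to −1.54, with 94.6, 127, 38.8 and 49.6 normalized counts against 239 to 745. The zinc finger gene Zfp938 moved from −2.70 to −1.83, with 40.7 to 93.0 against 288 to 715.

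The largest differences among the called lower genes with a mean of at least 100 lay at lower counts than the core genes. They were Ano7 (−3.03), Zscan20, Ablim1, Zfp938, Ddit4, Zfp109, Zfp619, Map10, Cand2 and Slc5a3 (−2.18). Ano7 had 40.6, 61.8, 2.71 and 11.5 normalized counts in R1, R2, R9 and R10 against 71.1 to 283, and 9.37 to 212 under Control ST. Control ST libraries ranged widely for these genes, from 0.909 to 593 for Zfp938 and from 12.4 to 680 for Ddit4. By mean count the lower genes were led by Csf1r, Cx3cr1, Tmem119, Olfml3, Gpr34, Itgb5, Slco2b1, Fcrls, Ptgs1 and Tgfbr1, of which Slco2b1, an organic anion transporter, had the largest difference at −1.25, with 9443 to 24479 against 34266 to 44511.

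Markers of other cells were examined in the same libraries, beside 10.8% called higher and 3.68% called lower over all genes. Of 17 lymphocyte genes 3 were measured, Ighm, Cd79a and Cd79b, and none was called. Of the red cell, platelet, oligodendrocyte and neuron genes that passed, none was called, and the red cell list held 0.00400 to 0.0270% of the reads of the high libraries, 0.00505 to 0.0276% of the low ones and up to 0.242% in Control ST library R16. Among 6 astrocyte genes Slc1a3 (1396 to 3012 against 4460 to 7328) and Aldoc were called lower. Endothelial Pltp, Flt1 and Ly6c1 were called higher of 5, 2 of the 5 having passed through the high libraries alone, while Pecam1 and Kdr overlapped. Ly6c1 was highest in Control ST library R8, at 81.8. Border-associated macrophage genes were called higher in 7 of 10, 4 of the 10 having passed through the high libraries alone, such as Cd163 at 205 to 479 against 0 to 30.5, but their summed share was 0.0225 to 0.0348% in the high and 0.0263 to 0.0392% in the low libraries, with Stab1 at 1877 to 3876 in the high and 3641 to 6379 in the low libraries. With 10 reads required in all 8 libraries the medians turned to −1.08 for border-associated macrophage genes (Stab1 alone) and −0.78 for endothelial genes (Pecam1 and Kdr). Their part in the differences was not tested.

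The labels give genotype independently of Ly6c2, so it could be tested with the class held. TASTPM minus WT was fitted to the 8 K/BxN ST libraries with limma, and 1 of 13199 genes, 0.00758%, was called at an adjusted p below 0.05 and an absolute log2 difference above 1. It was Fkbp5, a co-chaperone of the glucocorticoid receptor, with 4349 and 4345 normalized counts in R1 and R2, 1470 and 1225 in R9 and R10, 12172 and 10633 in R3 and R4, and 4392 and 3800 in R11 and R12. Its TASTPM libraries were above its WT libraries within each class, by 1.59 ± 0.13 (SE; limma, Benjamini-Hochberg adjusted p = 0.0241). The adjusted p was 0.062 in edgeR, 1.46e-22 in DESeq2 and 0.0345 to 0.293 in limma with each library left out in turn. Permuting genotype within the classes gave an exact two-sided p of 0.0556, the lower limit for 36 arrangements.

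Under Control ST Fkbp5 was at 6738, 6540 and 8013 in TASTPM and 2151, 1013 and 954 in WT, a difference of 2.47. Its exact permutation p was 0.100 (two-sided), the lower limit for 20 arrangements. Within each genotype the Ly6c2-high libraries were below the Ly6c2-low ones for Fkbp5, by a difference of −1.39 in TASTPM and −1.61 in WT, although over both genotypes the classes overlapped and the gene was not called. Cd36 and Pgap6 came next for genotype, with limma adjusted p of 0.131 and 0.479. The count for genotype was 0 with any 1 of the other 7 libraries left out and 65 without R4, which leaves R3 as the lone TASTPM low library, assumed to vary like the others. R3 is the low library with Y-linked reads, and Y-linked Ddx3y was among the 65. edgeR called 0 genes for genotype (654 at an unadjusted p below 0.05) and DESeq2 35.

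Whether the difference between the Ly6c2 classes itself differed by genotype was tested as the interaction in the same fit. In limma 0 of 13199 genes (0%) were called, with 690 at an unadjusted p below 0.05 and a smallest adjusted p of 0.512. edgeR called 0 (697 at an unadjusted p below 0.05) and DESeq2 38. Cd36, Rrm2 and Cenpa had the smallest p. Cd36, a scavenger receptor, was at 899 and 311 in R1 and R2 and listed at 0 in R3 and R4, against 1545 and 866 in R9 and R10 and 417 and 169 in R11 and R12 (interaction 6.93 ± 1.04, limma adjusted p = 0.512). Without R4 limma called 70 genes, and without any other single library 0. Without R4 every TASTPM library had Y-linked reads, whereas in WT R9 and R10 had them and R11 and R12 had high Xist instead. That fit therefore cannot tell sex from the interaction. With 2 libraries in each cell, a p above the threshold does not show that the genotypes respond alike.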

How the data were processed

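RNA-seq was made in sorted dorsal lumbar spinal cord microglia of WT and TASTPM mice, 14 libraries in 4 groups of 3 or 4. The authors amplified cDNA with SMART-Seq, aligned reads with HISAT2 2.1 to GRCm39, counted reads per gene with featureCounts 1.5.2 and normalized them with DESeq2. What the authors deposited is thus a normalized signal per gene, in which reads were divided by a factor of each library. Dividing by the worth of 1 read gave whole reads for 100% of values (tolerance 0.001), and these reads were used as depth. Repeated identifiers (7 of 14336 entries) were dropped, and 33 genes lack a symbol. Sample labels and column headings could be joined 1 to 1 for R1 to R4 only, and the others by group.

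Libraries were classed by Ly6c2 (above 1000 or below 100 normalized counts). The classes, gene lists and rules were chosen with earlier results of these data known. Differences are of mean log2(normalized count + 1) with the SE from the spread in both classes, and carry no test. Genotype and interaction were fitted with limma 3.58.1 in R 4.3.3 (trend, 4 cells of 2, Benjamini-Hochberg), because the deposited unit is not counts. edgeR 4.0.16 and DESeq2 1.42.0 on the recovered reads were alternatives, beside other scalings, pseudocounts, filters and the omission of each library. Named genes were the markers, up to 8 members of each list with the highest mean, the largest and most abundant calls, the smallest p values and the genes most like Ly6c2. Members of lists named beyond these were chosen after their values were seen. Libraries held 14223015 to 20239175 reads, and intervals and floors of 3 reads cover counting error only, since PCR reads were not tagged as molecules. The study gives its replicates as individual mice, and the labels do not tie a column to a mouse. Promoter sequences are RefSeq's for GRCm38.p6, with the first entry of each symbol (9434 of the 13199 genes compared), and gene positions are from GENCODE on GRCm39. Some members of the lists are not reported here.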

Additional observations from a re-analysis of the deposited data

Results flagged for a closer look

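In 62 groups of 4 libraries (the read shares of 26 gene lists, the 3 markers, the total reads and the number of genes with reads, in each class), 4 values stood further from the other 3 libraries than Dixon's 95% critical value allows, and chance gives about 1 in 20 groups. The neutrophil share of R10 was 0.0925% of reads, against 1.33 to 1.48% in the other Ly6c2-high libraries. The immediate early share of R3 was 0.175%, against 0.108 to 0.114% in the other Ly6c2-low libraries. The neuron share of R12 was 5.97e-04%, against 0.00160 to 0.00195%. Chil3 in R11 was at 14.3 normalized counts, against 30.5 to 35.2. The causes were not tested.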

How the results depend on the processing

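The 1421 higher and 486 lower genes became 788 and 414 when 10 reads were required in all 8 libraries, 749 and 61 at a log2 difference above 2, 2130 and 1284 by non-overlap alone, 1885 and 1295 within WT, and 2330 and 1259 within TASTPM. Alternatives chosen after the data were seen gave 3011 and 1945 with R3 alone as the low side, 3830 and 25 when scaled to microglia core reads, and 1061 and 168 against Control ST. Leaving out each library gave 1361 to 1689 higher and 431 to 744 lower genes, the 744 without R2. The share of calls that were higher was 74.5%, and 99.4% under core scaling. The classical monocyte median of 9.94 was 7.43 when scaled by library total, 8.03 with a pseudocount of 10, 4.13 with 10 reads in all 8 libraries, 9.13 within TASTPM and 10.70 under core scaling, which also brought the microglia core median from −0.95 to −0.08. With 10 reads in all 8 libraries, which drops members absent from the low class, list medians reversed to −0.69 for neutrophil, −0.10 for dendritic cell, −1.08 for border-associated macrophage and −0.78 for endothelial genes. Lists with smaller medians also turned sign there, homing and adhesion from 1.00 to −0.18, cytokines from 0.27 to −0.22, lymphocyte from 0.34 to −0.08, platelet from 0.09 to −0.78 and neuron genes from 0.39 to −1.63. For the interaction DESeq2 called 38 genes, and leaving out 1 library gave 0 to 70. For genotype edgeR called 0, DESeq2 35, the fit without class 0, and leaving out 1 library gave 0 to 65. The causes were not tested. No paired analysis was possible because the replicate numbers are not shared between the groups compared. With 2 libraries per genotype and class, a missed call says little.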
